A study of Mus musculus with 6 samples.

Results

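Collagens are the triple-helical proteins of the extracellular matrix, and the series lists transcripts of 36 genes that encode their chains, out of 15634 genes in all. The members were taken by name: every protein-coding gene whose symbol is Col, a type number, the letter a and a chain number. A textbook list of mouse collagen chains holds 44. The other 8 (Col4a4, Col6a6, Col9a1, Col9a2, Col13a1, Col19a1, Col25a1 and Col26a1) were not analysed here. All 36 had enough counts to be tested, but the authors' table holds only genes with at least 10 counts in at least 3 libraries, so no share of all collagen genes can be read from it.

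The RNA came from cultured mesenchymal stem cells of bone marrow (MSCs, adherent stromal cells that can form bone, fat and cartilage), taken from wild-type (WT) C57BL/6J mice, in 2 groups of 3 libraries. The Control group was left unstimulated. The TNF group received the inflammatory cytokine TNF-α at 10 ng/mL, and the time given for both groups is 24 h. The labels do not say whether replicates are separate cultures or animals, so p-values measure only the spread between these samples. All 10 marrow stromal markers searched were among the genes listed, and so were all 14 markers of macrophages and monocytes, with a summed level of 2194 to 3299 CPM (counts scaled to library size with TMM factors) in Control and 2116 to 2234 in TNF. Lyz2 held much of that sum (1334 ± 402 CPM in Control). Of the 14, 6 were lower (Cd68, C1qa, C1qb, C1qc, Cx3cr1 and Mrc1, with log2 fold changes from -1.95 to -0.78). Another 3 were higher (Csf1r, Cd14 and Cybb, from 0.36 to 2.26). Of all genes tested, 16.4% were lower and 16.0% higher. The part of these markers in the results on collagen was not tested. None of the 6 epithelial markers searched was among the genes listed, and only 2 of 7 endothelial ones were (Kdr and Vwf, both lower, summing to at most 2.16 CPM), without Pecam1, Cdh5, Emcn, Tek and Tie1. Bulk RNA cannot tell fewer cells of a type from less RNA per cell.

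Total counts ranged from 45629973 to 77142418 per library. TNF library 2 stood apart with 19.4% of its counts in 18S ribosomal RNA, against 1.10% to 3.55% in the others. Control library 2 held 4.45% of its counts in mitochondrial mRNAs, against 1.59% to 2.16%. The collagen chains took 2.61% to 3.04% of counts in Control and 1.40% to 1.66% in TNF.

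A collagen molecule is built of 3 chains wound around each other, alike or different, and the combination of chains defines its type. Fibrillar collagens form the tension-bearing fibres of bone, skin, tendon and cartilage. FACIT collagens sit on the surface of those fibres. Network-forming collagens build basement membranes and other sheets, and beaded-filament collagens link cells to the surrounding matrix. In bone, osteoblasts secrete mostly type I collagen, on which mineral is laid down.

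In the unstimulated cultures, levels differed widely by class. TPM, a level per transcript length, summed over all 36 chains was 8418, 9019 and 8101 in Control libraries 1, 2 and 3. Fibrillar chains made up 83.0% ± 0.174 (SD, n = 3) of that sum, and beaded-filament chains 11.7% ± 0.330. Col1a2 and Col1a1, which form type I collagen, led with 3274 ± 61.6 and 2369 ± 308 TPM. Together they made up 66.3% ± 0.484 of the sum. Next came Col5a2 (741 ± 38.2 TPM), Col6a1 (475 ± 33.4) and Col6a2 (448 ± 20.0). In all, 10 chains had a mean above 100 TPM in Control and 17 above 10 TPM. At the other end, 11 chains stayed under 1 TPM in both groups. Transmembrane chains came to 1.69 ± 0.512 TPM in sum, and Col28a1, the only listed chain outside the named classes, to 0.109 ± 0.0465 TPM.

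**Figure D1:**
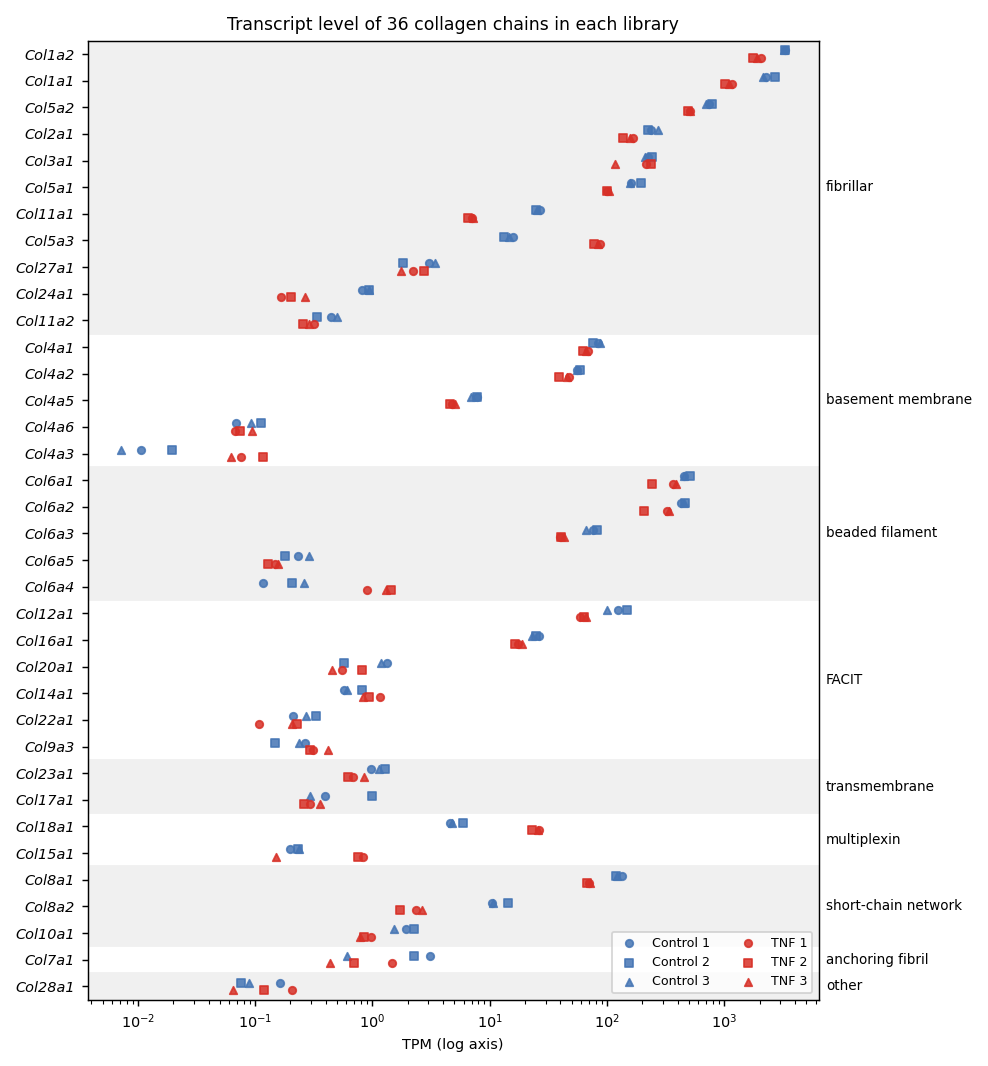
TPM (horizontal log axis) of each of the 36 collagen chains in 3 Control libraries (blue) and 3 TNF libraries (red), with the symbol giving the library number, grouped by collagen class. Most abundant chains lie to the left in TNF, while Col5a3, Col18a1, Col6a4, Col4a3, Col14a1 and Col9a3 lie to the right.

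After TNF-α the collagen sum was lower in every library than in any Control library, at 5333, 4596 and 5068 TPM. The TNF mean was 58.7% of the Control mean, a difference of -0.77 on the log2 scale (exact two-sided permutation test over 3 against 3 libraries, p = 0.1, the smallest this design allows). Rescaled to protein-coding genes, which leaves the 18S reads aside, the difference was -0.67. Type I chains made up 60.0% ± 0.497 of the collagen sum in TNF, below their share in every Control library. Over the 36 chains, the quasi-likelihood test of edgeR (adjusted by the method of Benjamini and Hochberg over all 15547 genes tested, called under 0.05) called 16 lower and 5 higher in TNF, and did not call 15. That is 58.3% of the chains called, against 32.4% of all genes tested. By direction, the background was 16.4% of all genes tested lower and 16.0% higher, while 44.4% of the chains were lower and 13.9% higher. The chains called higher include Col4a3 and Col22a1, which were listed only or mainly through their TNF counts (given below). A change of at least 1.5-fold was called in 18 chains (20.1% of all genes tested), 13 lower (10.6%) and 5 higher (9.45%). The median log2 fold change of the 36 was -0.49, against -0.005 over all genes tested. With library totals in place of TMM scaling, 38.5% of calls over all genes were higher, against 49.4%, and the chains split into 17 lower and 5 higher. In 23 chains all TNF libraries had lower CPM than all Control libraries and in 5 higher CPM, against 24.7% and 24.0% of all genes tested.

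**Figure D2:**
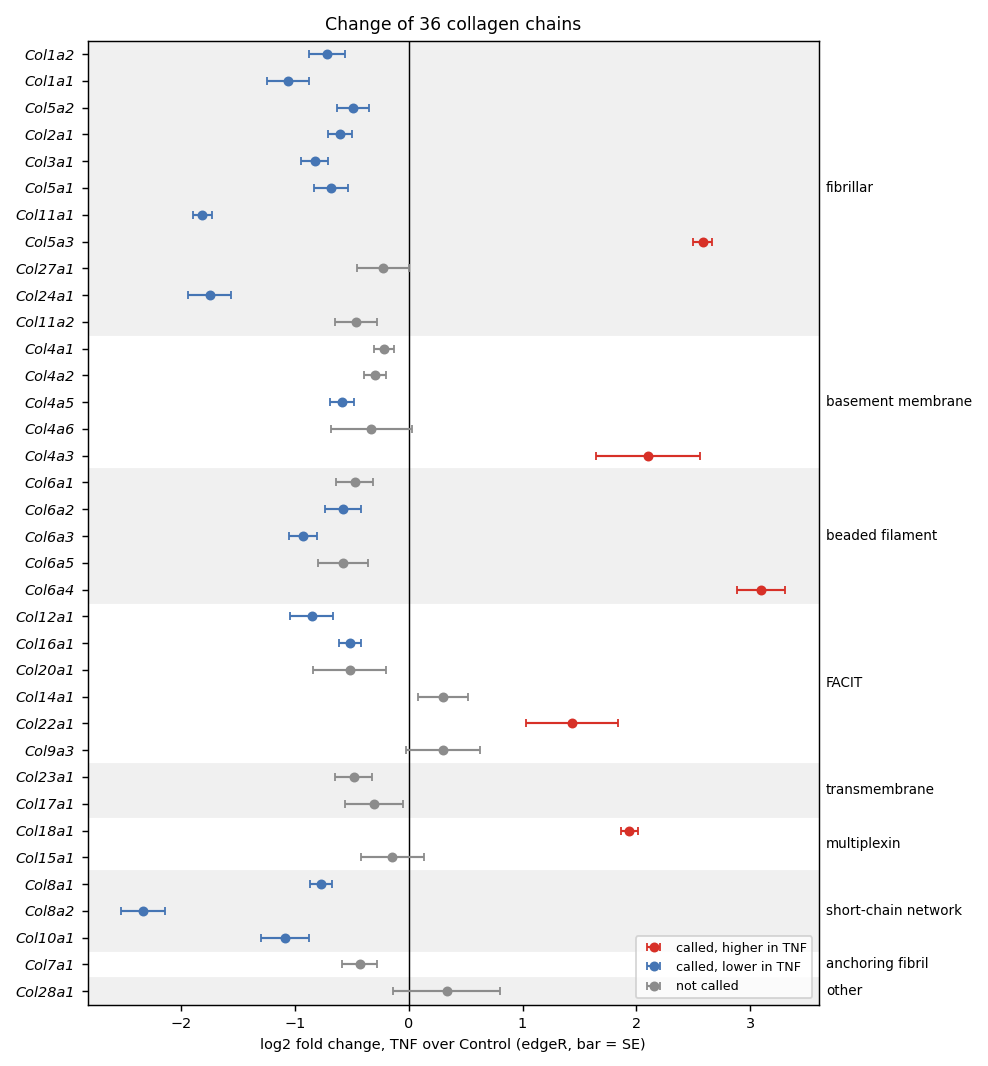
Fitted log2 fold change of TNF over Control (horizontal axis, edgeR) with its SE for the 36 collagen chains by class. Chains called lower are blue, chains called higher red and those not called grey. The 5 called higher are spread over fibrillar, basement membrane, beaded-filament, FACIT and multiplexin chains.

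Fibrillar chains were lower in 8 of 11 and higher in 1, and 2 were not called; their median was -0.68 on the log2 scale. Col1a1 had 7350, 10147 and 7117 CPM in Control and 3976, 4023 and 3815 in TNF. The Control libraries spread over a wider range than the TNF libraries, and the groups did not overlap. The fitted log2 fold change was -1.06 ± 0.19 (SE; edgeR adjusted p = 0.00261). Col1a2, the partner chain, had 9170, 10513 and 9259 CPM in Control and 5974, 6014 and 5608 in TNF. It fell by 0.72 ± 0.16 on the log2 scale (edgeR adjusted p = 0.00874). Most type I molecules hold 2 α1 chains and 1 α2 chain, yet Col1a1 TPM divided by Col1a2 TPM was 0.684, 0.822 and 0.663 in Control and 0.564, 0.574 and 0.572 in TNF. The ratio was below all Control values in each TNF library. Markers of osteoblasts, which make type I collagen in quantity, moved with these chains: 5 of 7 were lower (16.4% of all genes tested), none higher. Those lower were Runx2, Alpl, Ibsp, Sp7 and Dmp1, with log2 fold changes from -3.97 to -0.91. The summed level of the 7 was 993 to 1290 CPM in Control and 861 to 955 in TNF. Spp1, which was not called (edgeR adjusted p = 0.473), held most of that sum (942 ± 170 CPM in Control, 851 ± 51.0 in TNF). The part of these markers in the fall was not tested.

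Col3a1, which forms type III collagen in soft tissue and accompanies type I, gave an answer that depended on the unit. Its CPM was 540, 660 and 521 in Control and 337, 314 and 321 in TNF, with groups apart and a log2 fold change of -0.82 ± 0.12 (edgeR adjusted p = 0.000803). Its TPM was 224, 241 and 209 in Control and 215, 236 and 117 in TNF. TNF libraries 1 and 2 thus lay at the Control level per transcript length, and TNF library 3 alone lay below. With the count per TPM as a length offset in the fit, an alternative added after seeing the data, the log2 fold change was -0.17 (edgeR adjusted p = 0.674).

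The type V chains went in opposite directions. Type V collagen is a minor component of type I fibrils and helps to start them and to limit their width; its usual form holds the chains of Col5a1 and Col5a2, and Col5a3 encodes an alternative chain of more limited distribution. Col5a3 had 51.3, 51.1 and 49.9 CPM in Control and 302, 313 and 297 in TNF. The libraries within each group were almost level, and every TNF library had several times the Control value. The log2 fold change was 2.58 ± 0.08 (edgeR adjusted p = 3.00e-07). Col5a1 had 737, 1036 and 748 CPM in Control and 487, 566 and 518 in TNF (-0.68 ± 0.15, edgeR adjusted p = 0.00944, and 0.0537 without TNF library 1). Col5a2 had 2467, 2971 and 2405 CPM in Control and 1766, 2006 and 1809 in TNF (-0.49 ± 0.14, edgeR adjusted p = 0.0279). The Col5a2 call was lost without Control library 1, TNF library 1 or TNF library 3 (adjusted p 0.0631, 0.124 and 0.0770). In neither chain did the groups overlap.

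Per transcript length, Col5a3 made up 1.70%, 1.35% and 1.68% of type V transcripts in Control and 12.5%, 11.6% and 12.0% in TNF. The share of Col5a1 was 18.4% ± 1.26 and 14.8% ± 0.314 (n = 3 each), and that of Col5a2 80.1% ± 1.07 and 73.1% ± 0.324. Col5a3 stood at 0.0867 ± 0.0159 times the TPM of Col5a1 in Control and at 0.815 ± 0.0457 times in TNF. By mean TPM it moved from rank 16 to rank 9 among the 36 chains. The rise of Col5a3 was known when this share was chosen, so the share is a description.

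**Figure D3:**
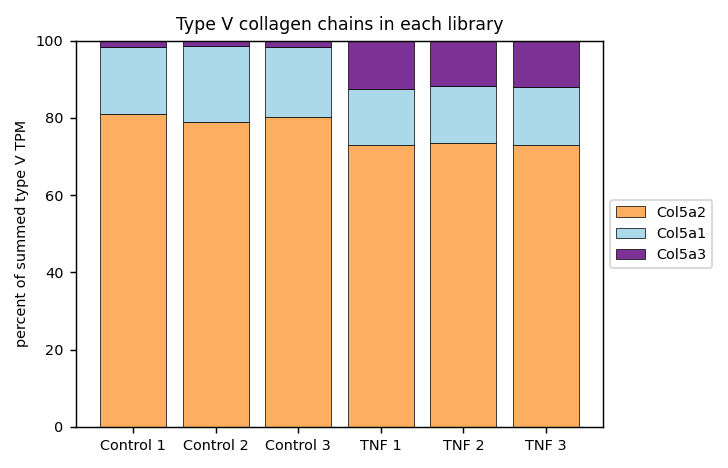
Share of the summed type V TPM (vertical axis, percent) held by Col5a2, Col5a1 and Col5a3 in each library. Col5a3, the top section of each bar, holds 1.35% to 1.70% in the Control libraries and 11.6% to 12.5% in the TNF libraries.

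Type XI collagen is the counterpart of type V in cartilage fibrils, and its α1 chain also joins type V chains in other tissues. Col11a1 had 109, 122 and 110 CPM in Control and 31.4, 33.5 and 32.1 in TNF. All TNF libraries lay far below Control, with a log2 fold change of -1.81 ± 0.08 (edgeR adjusted p = 1.26e-06). Col11a2, at 1.39, 1.26 and 1.60 CPM in Control and 1.05, 1.05 and 0.976 in TNF, was not called (adjusted p = 0.0913). Col24a1, a fibrillar chain expressed in developing bone, had 3.21, 3.07 and 3.11 CPM in Control and 0.696, 0.970 and 1.12 in TNF. The groups lay far apart (-1.75 ± 0.19, edgeR adjusted p = 0.000184). Col27a1 had 7.74 to 13.2 CPM in Control and 7.31 to 12.1 in TNF, with overlapping groups, and was not called (adjusted p = 0.489). Without Control library 2 and TNF library 2, an alternative added after seeing the data, it was called lower (edgeR adjusted p = 0.00250). Leaving out any single library did not call it (edgeR adjusted p 0.138 to 0.890).

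Col2a1, the main fibrillar collagen of cartilage, ranked 6 among the chains in Control, at 238, 222 and 272 TPM, close to Col3a1. In TNF it had 166, 137 and 156 TPM. On the CPM scale the values were 642, 692 and 762 in Control and 474, 453 and 451 in TNF, without overlap (-0.61 ± 0.11, edgeR adjusted p = 0.00252). Other cartilage markers were low beside it: Acan and Matn1 were not among the genes listed, and the 5 others summed to 45.5 to 50.2 CPM in Control and 18.5 to 23.0 in TNF. Of these 5, 4 were lower and none higher (16.4% and 16.0% of all genes tested). Their part in the fall of Col2a1 and Col11a1 was not tested.

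Basement membrane chains, all of type IV, were lower in 1 of 5 and higher in 1, near the 16.4% and 16.0% of all genes tested. Their median log2 fold change was -0.30. Col4a1 and Col4a2, which together form the type IV collagen found in nearly all basement membranes, are neighbours on opposite strands with RefSeq starts 21 bases apart (GRCm38.p6). Col4a1 had 289, 315 and 311 CPM in Control and 264, 265 and 256 in TNF. Col4a2 had 198, 241 and 203 CPM in Control and 178, 170 and 175 in TNF. In both genes all TNF values lay below all Control values, but by small margins. The log2 fold changes were -0.22 ± 0.09 and -0.30 ± 0.10, and neither was called by edgeR (adjusted p = 0.0851 and 0.0517), while DESeq2 called both (adjusted p = 0.0279 and 0.0250). Col4a5, mutated in Alport syndrome, had 25.7, 29.7 and 24.0 CPM in Control and 16.0, 18.4 and 18.5 in TNF, and was lower (-0.59 ± 0.11, edgeR adjusted p = 0.00336). Col4a6 was not called, with 15, 36 and 20 counts in Control and 13, 9 and 21 in TNF.

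Col4a3, whose product joins that of Col4a5 in the kidney's filtration barrier, was called higher from very few reads. It had 3, 8 and 2 counts in Control and 12, 13 and 18 in TNF, a ratio of 4.13 with an exact (Clopper-Pearson) 95% interval of 2.18 to 8.38 that covers counting error only. The fitted log2 fold change was 2.10 ± 0.46 (edgeR adjusted p = 0.00818), and 2.71 without Control library 2. limma on log2(TPM + 0.1) did not call it (adjusted p = 0.0937). It reached 10 counts in the TNF libraries alone, so it met the rule of 10 counts in 3 libraries only through that group. Its call, ratio and interval are not independent of that rule and are given as a description.

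Type VI collagen forms beaded filaments around cells, and its usual molecule joins the chains of Col6a1, Col6a2 and Col6a3. Beaded-filament chains were lower in 2 of 5 and higher in 1 (16.4% and 16.0% of all genes tested), with a median of -0.58. Col6a1 had 1004, 1307 and 1043 CPM in Control and 843, 651 and 917 in TNF. Col6a2 followed with 923, 1167 and 1012 CPM in Control and 741, 553 and 783 in TNF. In both, TNF library 2, the one rich in 18S reads, had the lowest value, and the groups did not overlap. Col6a2 was lower (-0.58 ± 0.16, edgeR adjusted p = 0.0237), a call lost without Control library 3 or TNF library 1 (adjusted p 0.0519 and 0.0623). Col6a1 was not called (-0.48 ± 0.16, adjusted p = 0.0564) but was called lower by DESeq2 (adjusted p = 0.0113) and limma-voom (adjusted p = 0.0495). By edgeR it was called without TNF library 3 (adjusted p = 0.0485). It was also called by edgeR with protein-coding genes alone, an alternative added after seeing the data (adjusted p = 0.0456). The TPM of Col6a1 divided by that of Col6a2 was near 1 in both groups, at 1.06 ± 0.0457 in Control and 1.14 ± 0.0231 in TNF. Every TNF library nevertheless lay above all Control libraries in this ratio.

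Col6a3, the largest of these chains, had 232, 298 and 224 CPM in Control and 128, 139 and 130 in TNF. It was lower by a wider margin, with TNF libraries close together (-0.93 ± 0.12, edgeR adjusted p = 0.000520). Col6a4 and Col6a5 encode chains that resemble that of Col6a3. Col6a4 had 0.470, 0.622 and 0.598 CPM in Control and 3.74, 5.75 and 5.09 in TNF, from 28, 47 and 34 counts and 188, 225 and 292 counts. It showed the largest rise among the chains, 3.10 ± 0.21 on the log2 scale (edgeR adjusted p = 1.21e-05), yet its TNF level was 1.22 ± 0.289 TPM, far under the 330 ± 78.8 TPM of Col6a1. Col6a5 had 1.13, 1.07 and 1.53 CPM in Control and 0.796, 0.817 and 0.872 in TNF, without overlap, and was not called (adjusted p = 0.0753). How reads that match several related chains were divided is not given in the sources used here.

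Among FACIT chains 2 of 6 were lower and 1 higher (16.4% and 16.0% of all genes tested), with a median of -0.11. Col12a1, a FACIT of tendon, bone surface and other loaded tissue, was the most abundant, with 702, 942 and 563 CPM in Control and 357, 460 and 406 in TNF. Control libraries varied widely but stayed above TNF (-0.85 ± 0.19, edgeR adjusted p = 0.00910, and 0.0504 without TNF library 1). Col16a1 had 62.2, 72.5 and 61.2 CPM in Control and 44.3, 49.3 and 43.5 in TNF (-0.52 ± 0.10, edgeR adjusted p = 0.00355). Col14a1 (1.41 to 2.41 CPM in Control, 2.07 to 2.37 in TNF), Col20a1 (1.84 to 3.13 and 1.33 to 2.78) and Col9a3 (0.193 to 0.238 and 0.227 to 0.332) had overlapping groups in CPM and were not called. In TPM all TNF libraries lay above all Control libraries for Col14a1 (0.576 to 0.809 in Control, 0.823 to 1.15 in TNF). The same held for Col9a3 (0.149 to 0.264 and 0.295 to 0.416 TPM). Without Control library 2, Col14a1 was called higher (adjusted p = 0.0399), and without TNF library 2, Col20a1 was called lower (adjusted p = 0.0351).

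Col22a1, a FACIT of tissue junctions such as that of muscle and tendon, was called higher from 7, 15 and 8 counts in Control and 28, 18 and 15 in TNF. The ratio of summed counts was 2.54 (95% counting interval 1.62 to 4.07) and the fitted log2 fold change 1.44 ± 0.40 (edgeR adjusted p = 0.0254). Its TPM pointed the other way, at 0.209, 0.329 and 0.272 in Control and 0.108, 0.226 and 0.206 in TNF. The call was lost without Control library 1 or 3 or TNF library 1 or 2 (adjusted p 0.0817, 0.0699, 0.105 and 0.0684). In Control only library 2 reached 10 counts, so Col22a1 was listed mainly through its TNF counts. Its call is likewise a description.

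The multiplexins lie in basement membrane zones, and their C-terminal fragments, endostatin from type XVIII and a like fragment from type XV, are known as inhibitors of blood vessel growth. Col18a1 had 11.5, 11.6 and 12.0 CPM in Control and 45.2, 45.3 and 44.3 in TNF. Libraries within a group differed little, and the log2 fold change was 1.94 ± 0.08 (edgeR adjusted p = 5.89e-07). In TPM it went from 4.54, 5.89 and 4.76 to 26.4, 23.0 and 25.6, a change of 2.30 on the log2 scale of the means. Col15a1 had 0.554, 0.754 and 0.685 CPM in Control and 0.657, 0.715 and 0.453 in TNF, and was not called (adjusted p = 0.718). Its TPM was 0.197, 0.232 and 0.235 in Control and 0.829, 0.750 and 0.150 in TNF. TNF libraries 1 and 2 departed from the other 4 libraries in TPM but not in CPM.

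All 3 short-chain network chains were lower, with a median of -1.08. Col8a1 and Col8a2 form type VIII collagen, a hexagonal network under vascular and corneal endothelium that is also made by smooth muscle and mesenchymal cells. Col8a2 had the largest fall of all 36 chains. It had 24.6, 37.4 and 23.3 CPM in Control and 5.83, 4.95 and 6.09 in TNF (-2.34 ± 0.19, edgeR adjusted p = 3.55e-05). Col8a1 had 350, 358 and 319 CPM in Control and 193, 217 and 193 in TNF, a smaller fall (-0.77 ± 0.10, edgeR adjusted p = 0.000394). The TPM of Col8a1 was 12.8, 8.23 and 11.4 times that of Col8a2 in Control and 29.5, 39.2 and 26.8 times in TNF, so the chains did not fall in proportion. Markers of smooth muscle cells and pericytes were lower in 4 of 6 and higher in none (16.4% and 16.0% of all genes tested). Their summed level was 2911 to 3309 CPM in Control and 1679 to 2075 in TNF. Acta2 held most of that sum (2482 ± 218 CPM in Control, 1556 ± 189 in TNF). The part of these markers in these falls was not tested. Not all marker lists fell: of the 10 marrow stromal markers 3 were higher and 1 lower, and of the 3 adipocyte markers listed 2 were higher and 1 lower. Col10a1, a marker of hypertrophic chondrocytes, had 3.21, 4.30 and 2.60 CPM in Control and 1.69, 1.71 and 1.39 in TNF (-1.08 ± 0.21, edgeR adjusted p = 0.00439).

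The remaining 4 chains were not called. Of the transmembrane chains, Col23a1 had 2.65, 3.84 and 3.29 CPM in Control and 2.21, 2.35 and 2.44 in TNF (-0.48 ± 0.16, edgeR adjusted p = 0.0522, and 0.0254 without Control library 1). It was also called lower with library totals (adjusted p = 0.0369), among other alternatives. Col17a1, of the junctions that anchor epithelial cells, had 0.914 to 1.64 CPM in Control and 0.935 to 1.15 in TNF. Col7a1, which forms the anchoring fibrils of skin, had 2.67, 2.77 and 3.11 CPM in Control and 1.87, 2.07 and 2.39 in TNF (-0.43 ± 0.15, edgeR adjusted p = 0.0598, and 0.0496 without TNF library 3). Its TPM, at 3.11, 2.26 and 0.601 in Control and 1.45, 0.703 and 0.436 in TNF, overlapped between the groups. Col28a1 had 0.370, 0.198 and 0.211 CPM in Control and 0.497, 0.332 and 0.157 in TNF, from 49 and 47 counts in all, with overlapping groups.

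Upstream sequence is shown for the 3 most abundant chains called higher and, beside them, for Col8a2, which had the largest fall, and Col1a2, the most abundant chain. Each is the 250 bases before a RefSeq start (GRCm38.p6; the counts were made on GRCm39), 5′ to 3′ along the gene, with motif matches in capitals. Col18a1 has 2 listed starts 52825 bases apart. The windows are chr9:20815068-20815317, minus strand for Col5a3, chr9:106096692-106096941, minus strand for Col6a4, chr10:77166531-77166780, minus strand for the upstream and chr10:77113706-77113955, minus strand for the downstream start of Col18a1, chr4:126286544-126286793, plus strand for Col8a2 and chr6:4505368-4505617, plus strand for Col1a2.
Col5a3: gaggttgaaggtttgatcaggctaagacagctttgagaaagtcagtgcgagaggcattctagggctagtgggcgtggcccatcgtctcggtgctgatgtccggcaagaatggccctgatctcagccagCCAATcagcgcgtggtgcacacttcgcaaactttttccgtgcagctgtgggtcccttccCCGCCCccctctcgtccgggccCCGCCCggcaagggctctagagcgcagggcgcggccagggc
Col6a4: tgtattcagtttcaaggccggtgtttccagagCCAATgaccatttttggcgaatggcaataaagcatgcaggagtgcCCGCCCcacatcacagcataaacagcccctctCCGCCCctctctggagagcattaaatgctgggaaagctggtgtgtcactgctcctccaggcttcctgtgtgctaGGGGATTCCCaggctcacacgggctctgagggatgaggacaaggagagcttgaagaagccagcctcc
Col18a1, upstream start: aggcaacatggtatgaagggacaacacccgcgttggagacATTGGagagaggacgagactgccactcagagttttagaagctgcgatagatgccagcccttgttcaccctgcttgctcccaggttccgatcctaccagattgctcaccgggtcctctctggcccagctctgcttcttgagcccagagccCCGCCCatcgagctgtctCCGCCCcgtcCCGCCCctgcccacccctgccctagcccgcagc
Col18a1, downstream start: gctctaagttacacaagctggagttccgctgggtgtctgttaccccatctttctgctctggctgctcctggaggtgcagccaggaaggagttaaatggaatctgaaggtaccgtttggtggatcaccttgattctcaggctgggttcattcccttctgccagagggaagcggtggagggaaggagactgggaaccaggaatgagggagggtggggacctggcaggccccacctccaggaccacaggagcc
Col8a2: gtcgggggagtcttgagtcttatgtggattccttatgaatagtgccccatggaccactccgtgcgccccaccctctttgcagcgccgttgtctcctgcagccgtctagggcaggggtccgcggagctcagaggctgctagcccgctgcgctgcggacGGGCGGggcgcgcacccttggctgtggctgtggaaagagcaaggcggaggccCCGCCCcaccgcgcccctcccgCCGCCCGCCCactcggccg
Col1a2: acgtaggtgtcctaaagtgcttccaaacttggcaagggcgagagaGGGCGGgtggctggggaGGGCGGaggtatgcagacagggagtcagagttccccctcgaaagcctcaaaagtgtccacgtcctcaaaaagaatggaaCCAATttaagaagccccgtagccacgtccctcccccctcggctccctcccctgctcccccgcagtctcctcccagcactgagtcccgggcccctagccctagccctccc

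The motifs searched, on both strands, were the GC box GGGCGG, the CCAAT box CCAAT, the TATA box TATAAA and the NF-kB decamer, a sequence to which the transcription factor downstream of TNF receptors binds. In the printed windows no motif overlapped another motif, while the 2 GC boxes of Col8a2 nearest the start overlap each other. Windows were listed for 28 of the 36 chains, 30 in all. The NF-kB decamer was found in 4 of these 30, against 7.2% of 32817 windows of all genes. In the printed windows it stands once, in Col6a4 at 67 bases before the start. The other matches lay in a window of Col6a2, which was called lower, and in those of Col4a2 and Col27a1, which were not called. The GC box was found in 19 of 30, against 32.7% of all windows, the CCAAT box in 11 of 30 (33.8%) and the TATA box in 4 of 30 (12.4%). Col5a3 holds 2 GC boxes and a CCAAT box, Col1a2 the same set, and the downstream window of Col18a1 none of the 4 motifs. A match is a string of letters and was not tested as a binding site.

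For 11 of the 36 chains the count per TPM was not constant over libraries (SD over 0.2 on the log2 scale), as it was not for 8.5% of the 15473 genes with values above 0 in all libraries. A gene's count per TPM reflects the transcript length that the authors' quantification assigned to it in each library. In Col3a1, Col15a1 and Col4a3 the 3 Control libraries and TNF library 3 lay together, and TNF libraries 1 and 2 lay below. On the log2 scale relative to the mean of the chain, Col15a1 stood at 0.62 or 0.63 in Control, at -1.27 and -1.23 in TNF libraries 1 and 2, and at 0.62 in TNF library 3. In Col3a1 the values were 0.30, 0.27 and 0.29 in Control and -0.39, -0.85 and 0.38 in TNF. In Col22a1 all Control libraries lay at -0.92 or below and all TNF libraries above 0. In Col18a1 the TNF libraries stood between -0.21 and -0.23, Control libraries 1 and 3 at 0.43 and 0.37 and Control library 2 at -0.14. Col5a3, Col1a1, Col5a1 and Col6a1 had SDs of 0.01 or less, so CPM and TPM tell the same of them.

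**Figure D4:**
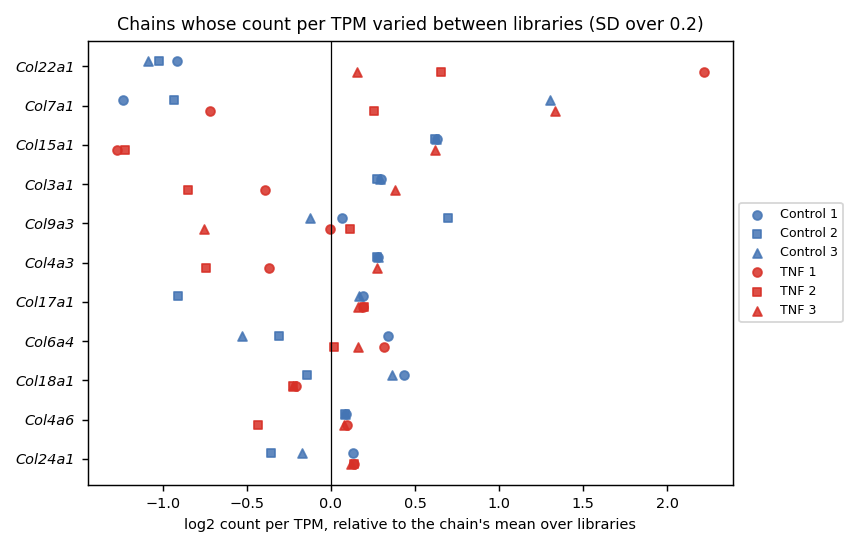
Count per TPM (horizontal axis, log2, each library set to its median gene and each chain to its mean over libraries) for the 11 chains whose SD over the 6 libraries was over 0.2. Control libraries are blue and TNF libraries red. TNF libraries 1 and 2 lie apart from the other 4 for Col15a1, Col3a1 and Col4a3.

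A procollagen chain is hydroxylated and glycosylated in the endoplasmic reticulum, folded with the help of chaperones, exported, trimmed of its propeptides and cross-linked. Genes of these steps, with collagen receptors and breakdown enzymes, were described from 6 lists holding 62 genes, of which 58 were tested. Of these, 16 were higher and 16 lower, against the 16.0% and 16.4% of all genes given above. By list, modification and folding genes split into 4 higher and 6 lower of 19, export and transcription genes into 2 higher and 0 lower of 7, propeptide removal genes into 3 and 1 of 6, and cross-linking genes into 3 and 0 of 6. In modification and folding, Serpinh1, the collagen chaperone HSP47, went from 453 ± 134 to 263 ± 23.6 CPM (edgeR adjusted p = 0.0136, and 0.0623 and 0.0511 without TNF library 1 or 2). P3h1, a prolyl 3-hydroxylase, went from 52.3 ± 2.42 to 76.5 ± 2.24 CPM (edgeR adjusted p = 0.000714, n = 3 libraries in each group here and below). Also higher in that list were P4ha2, Colgalt1 and Tmem38b, and also lower were Plod1, P3h2, P3h4, Crtap and Ppib. The calls of P4ha2, Plod1, P3h2, Crtap and Ppib were lost without some library. In export and transcription, Larp6, which binds type I collagen mRNAs, went from 20.8 ± 1.59 to 28.4 ± 0.874 CPM (edgeR adjusted p = 0.00463). The Larp6 call was lost with library totals (adjusted p = 0.0813) and in the 3 limma fits on log2 TPM (adjusted p 0.0969 to 0.115).

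Adamts14, which cuts the N-propeptide of fibrillar procollagens, had 11.9, 12.5 and 12.7 CPM in Control and 63.2, 60.2 and 55.2 in TNF (2.27 ± 0.09, edgeR adjusted p = 5.45e-07). Pcolce, which enhances removal of the C-propeptide, moved the other way, with 770, 1034 and 762 CPM in Control and 431, 428 and 462 in TNF (-0.96 ± 0.14, edgeR adjusted p = 0.000984). Bmp1 (0.35 ± 0.09, edgeR adjusted p = 0.0186) and Tll1 (0.91 ± 0.23, edgeR adjusted p = 0.0175), also propeptide removal genes, were higher. Both calls were lost without Control library 1 (edgeR adjusted p 0.0871 and 0.0519), among other libraries. Among cross-linking genes, Tgm2, a transglutaminase, had 151, 180 and 151 CPM in Control and 549, 485 and 555 in TNF (1.72 ± 0.11, edgeR adjusted p = 9.18e-06). Lox, the main lysyl oxidase, was not called (edgeR adjusted p = 0.182).

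Collagen receptors were lower in 5 of 9 and higher in 1. The collagen-binding integrins pair an α chain with β1, and their α chains split. Itga11, the fibrillar collagen receptor of mesenchymal cells, had 351, 399 and 349 CPM in Control and 115, 116 and 114 in TNF (-1.67 ± 0.09, edgeR adjusted p = 3.31e-06). Itga1, which prefers type IV collagen, had 51.4, 52.6 and 49.0 CPM in Control and 18.5, 19.1 and 16.9 in TNF (-1.49 ± 0.08). Itga10, a receptor of cartilage, had 8.52, 10.1 and 8.08 CPM in Control and 1.57, 1.92 and 1.97 in TNF (-2.29 ± 0.14). Itga2, the remaining α chain of this group, rose from 0.454, 0.410 and 0.281 CPM to 2.96, 3.45 and 3.35 (3.08 ± 0.21, edgeR adjusted p = 1.19e-05). In all 4 the groups were far apart. The tyrosine kinase receptors Ddr1 and Ddr2 were not called.

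Collagen breakdown genes were higher in 3 of 11 and lower in 4. Those lower were the enzymes Mmp16 and Ctsk and the inhibitors Timp2 and Timp3. The log2 fold change was -0.75 for Mmp16 (edgeR adjusted p = 0.00104) and -0.34 for Ctsk (edgeR adjusted p = 0.0202). The Ctsk call was lost without Control library 1, TNF library 1 or TNF library 3 (edgeR adjusted p 0.0552, 0.0879 and 0.0549). Mmp9, a gelatinase, had 1.11, 2.17 and 1.51 CPM in Control and 38.6, 42.9 and 43.9 in TNF (4.69 ± 0.21, edgeR adjusted p = 1.14e-06). Mmp13, a collagenase that cleaves fibrillar collagens, had 412, 498 and 396 CPM in Control and 744, 721 and 720 in TNF (0.74 ± 0.12, edgeR adjusted p = 0.00144). Mmp8, a collagenase best known from neutrophils, had 0.235, 0.357 and 0.211 CPM in Control and 0.816, 0.434 and 0.628 in TNF (edgeR adjusted p = 0.0273; 0.0606 to 0.112 without Control library 1 or 3 or TNF library 1 or 3). The inhibitors Timp2 and Timp3 were lower, Timp3 with 1928, 1993 and 1781 CPM in Control and 1142, 1198 and 1054 in TNF (-0.75 ± 0.12, edgeR adjusted p = 0.00165). Timp2 was not called without TNF library 1, 2 or 3 (adjusted p 0.101, 0.0576 and 0.0550).

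**Figure D5:**
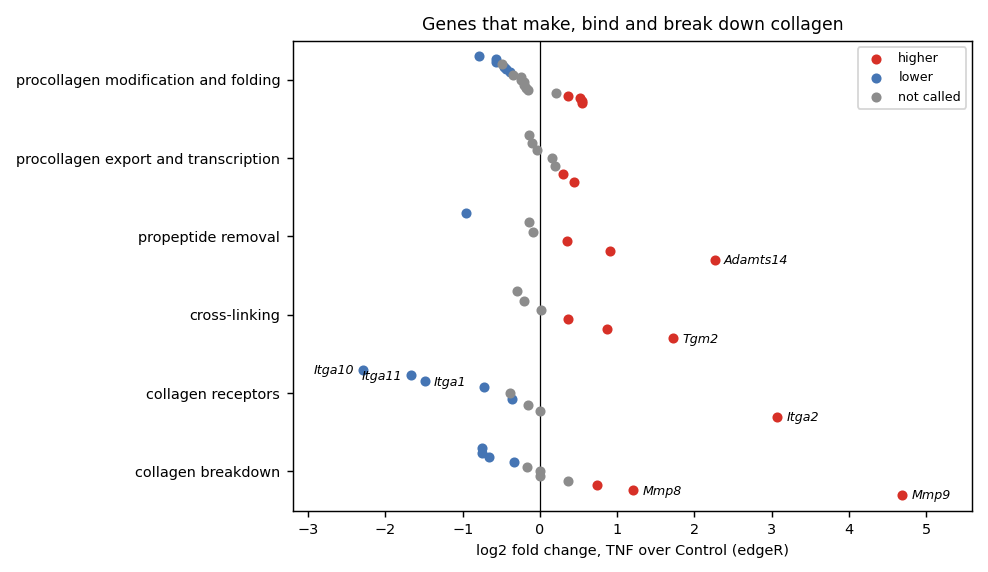
Fitted log2 fold change of TNF over Control (horizontal axis, edgeR) for 58 genes in 6 lists, each point a gene, red where called higher, blue where called lower and grey where not called. Names mark called genes with a change of at least 2-fold, from Itga10 at -2.29 to Mmp9 at 4.69.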

How the data were processed

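The authors deposited 2 files per library for the 6 libraries: expected counts as whole numbers without gene names, and TPM with symbols. Per the submitters' processing notes, Trim Galore, STAR, StringTie and Salmon and build GRCm39 were used, with no versions, settings or strand setting given; per the labels, libraries came from a stranded SMART-Seq kit. The title line of the deposited count files calls the counts normalized and the column name raw; their totals differ, so they were used as counts. Deposited TPM sum to 1000000 over the 15634 genes listed, so they are relative to that set.

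Each count was matched to the gene on the same line of the TPM file. The match was checked: 260 zeros fell together, and the SD of log2 count per TPM over libraries had a median of 0.027, against 0.413 with lines moved by 1.

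Counts were fitted on the whole table with edgeR 4.0.16 in R 4.3.3 (filterByExpr, TMM, glmQLFit, glmQLFTest, group only), with calls at an adjusted p (Benjamini-Hochberg) under 0.05. CPM use TMM factors. The SE is the absolute log2 fold change divided by the square root of F. On simulated data of 15547 genes with known changes the fit called 44% of genes changed 1.5-fold, 81.2% at 2-fold and 100% at 4-fold. In that simulation 15227 genes were unchanged, while 32.4% of genes were called in the data. These shares therefore do not measure how often the main fit finds a change of that size. Values in every library are given for called chains with a change of at least 1.5-fold, the most abundant chain of each class and chains of the same type (for Col4a6 as counts); pathway genes were named where called with a change of at least 2-fold. Any further gene was named with its values known. The chains and lists were chosen with earlier results of these data known. Alternatives were RLE factors, library totals, DESeq2 1.42.0, limma 3.58.1 (voom, and log2 TPM with pseudocounts), other filters, a stricter threshold, a replicate block and leaving out libraries; 3 more were chosen after seeing the data.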

Additional observations from a re-analysis of the deposited data

How the results depend on the processing

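Of the 21 chains called, 13 stayed called in the same direction under every alternative that tested them and 16 under all 6 repeats that left out a library. Leaving out a library, the number of chains called higher ranged from 4 to 6 and lower from 12 to 17. The log2 ratio of summed TPM ranged from -0.82 to -0.71, and the gain in the Col5a3 share of type V TPM from 10.2 to 10.7 percentage points. The number called higher was 3 with limma on log2(TPM + 1) or log2(TPM + 0.1), 2 with a mean TPM of at least 1, and 3 with CPM of at least 1 in 3 libraries; both filters leave out Col4a3 and Col22a1, the first also Col6a4, and the cause of the other changes was not tested. The log2 ratio of summed TPM was -0.67 when rescaled to protein-coding genes and -0.55 without Col1a1, Col1a2 and Col3a1. On CPM the Col5a3 share rose by 9.87 points instead of 10.5. Col22a1 turned to -0.11 and -0.42 with limma on TPM (pseudocounts 1 and 0.1) and to -0.61 with a length offset. Col15a1, not called, turned to 0.34, 0.86 and 1.32 in the same fits and to 0.039 without TNF library 3 (range over libraries left out -0.27 to 0.039). Col28a1 turned to -0.13 without TNF library 1 (range -0.13 to 0.70), and Col4a6 (lowest -0.56) to 0.070 without Control library 2 and TNF library 2; the cause was not tested.

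Libraries of the 2 groups share only a replicate number. Same-numbered libraries had correlations of deviations of -0.012, -0.304 and -0.222, and no library correlated best with its own number. With the replicate number as a block, 4 chains were called higher and 13 lower. Col1a2, Col5a2, Col6a2 and Col22a1 lost their calls (edgeR adjusted p 0.0604, 0.0741, 0.0727 and 0.0570). Of 32 called pathway genes, 14 lost the call without some library. Chains with few counts, such as Col4a3, Col22a1, Col9a3 and Col28a1, are limited by depth.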
